A study of Mus musculus with 14 samples.

Results

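The 8 genes described here make, sense and break down endocannabinoids: *Napepld*, *Faah*, *Dagla*, *Daglb*, *Mgll*, *Abhd6*, *Abhd12* and *Cnr2*. They were taken by symbol from a table of 33939 Ensembl genes, 33802 of them with a symbol, and all 8 were found and passed the filter on low values in every comparison. The table held 14 bulk RNA-seq libraries of CD11b+ microglia and macrophages, sorted with magnetic beads from the contralateral (CL) and ipsilateral (IL) hemispheres of C57BL/6 mice aged 8 to 12 weeks, 3 days after traumatic brain injury (TBI) by controlled cortical impact. Control mice (Ctrl) were Cx3cr1-CreER+/- and conditional knockout mice (cKO) were Cx3cr1-CreER+/-;Nhe1flox/flox. Ctrl gave 4 libraries from each hemisphere and cKO gave 3 from each, out of 8 mice, named by mouse number, and 6 of the mice gave both hemispheres. All of the mice, Ctrl included, carried the inducible Cre, received tamoxifen and were injured, so no library came from an uninjured brain or from a mouse without Cre. The *Cx3cr1* promoter drives Cre in microglia and in other Cx3cr1+ myeloid cells, and the study waited after tamoxifen so that circulating cells could be replaced.

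Endocannabinoids are lipid messengers that are made on demand from membrane phospholipids and act on cannabinoid receptors. NAPE-PLD, the product of *Napepld*, releases N-acylethanolamines such as anandamide and palmitoylethanolamide from their phospholipid precursors, and fatty acid amide hydrolase (*Faah*) breaks them down. Diacylglycerol lipases α and β (*Dagla*, *Daglb*) make 2-arachidonoylglycerol, with the β form the main one in microglia and macrophages, whereas monoacylglycerol lipase (*Mgll*) and the serine hydrolases ABHD6 and ABHD12 hydrolyse it. The arachidonate that is released feeds the prostaglandin enzymes. *Cnr2* codes for the CB2 receptor, the cannabinoid receptor of immune cells.

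The 250 bases upstream of the first RefSeq start (GRCm38.p6) are given 5′ to 3′ on the gene's own strand for the 3 members that passed the test between hemispheres, since their transcript levels carry the results below. *Napepld* lies on the minus strand of chromosome 5 (21662901 to 21701396), *Mgll* on the plus strand of chromosome 6 (88724412 to 88828360) and *Abhd6* on the plus strand of chromosome 14 (8002902 to 8056763). *Mgll* and *Abhd6* each have a second RefSeq start, whose window is not printed. The windows shown are chr5:21701623-21701872, chr6:88724162-88724411 and chr14:8002638-8002887. Capitals in the *Napepld* window mark an inverted repeat of 15 bases.
Napepld: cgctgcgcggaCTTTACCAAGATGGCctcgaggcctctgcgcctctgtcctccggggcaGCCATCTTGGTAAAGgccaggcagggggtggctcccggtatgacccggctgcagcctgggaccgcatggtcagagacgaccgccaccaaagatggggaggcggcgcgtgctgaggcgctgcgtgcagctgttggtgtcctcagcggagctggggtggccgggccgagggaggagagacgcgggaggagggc
Mgll: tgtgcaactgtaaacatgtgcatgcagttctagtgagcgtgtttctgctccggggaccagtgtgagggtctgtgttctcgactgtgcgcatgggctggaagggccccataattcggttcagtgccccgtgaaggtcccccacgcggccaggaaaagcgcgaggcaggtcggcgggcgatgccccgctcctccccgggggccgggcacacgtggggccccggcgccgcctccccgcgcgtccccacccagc
Abhd6: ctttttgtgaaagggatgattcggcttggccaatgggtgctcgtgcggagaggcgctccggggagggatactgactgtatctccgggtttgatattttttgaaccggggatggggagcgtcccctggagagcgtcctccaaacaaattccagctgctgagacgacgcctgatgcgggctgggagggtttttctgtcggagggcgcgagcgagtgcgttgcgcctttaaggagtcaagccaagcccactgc
The windows shown had a GC content of 69.6% for *Napepld*, 68% for *Mgll* and 58.4% for *Abhd6*. None of 4 motifs searched on both strands was in any of these 3 windows: the GC box GGGCGG, which 32.7% of 32851 RefSeq promoter windows held, the PU.1 core GAGGAA, held by 23.3%, the AP-1 site TGANTCA, held by 6.75%, and the TATA box TATAAA, held by 12.4%. The window of the second start of *Mgll* (chr6:88724454-88724703) and that of *Abhd6* (chr14:8002716-8002965) each held 1 GC box and none of the other motifs. The arms of the *Napepld* repeat, CTTTACCAAGATGGC and GCCATCTTGGTAAAG, stood 33 bases apart, and 54 of the 32851 windows, or 0.164%, held an inverted repeat at least as long. The longest in the *Mgll* and in the *Abhd6* window shown had arms of 8 bases, and at their second starts the arms were of 9 and 6 bases. This feature was picked after the sequence had been seen and describes the sequence alone.

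Library depth, estimated from the deposited values, ran from 12.2 to 41.6 M reads (M for 1e+06) with a median of 34.2 M. The lowest were Ctrl IL 3546 and Ctrl CL 3551. Of 10 homeostatic microglia markers, 6 fell in IL compared to CL in Ctrl and 7 in cKO, and their summed level was 38786 to 43901 CPM (counts scaled to a library total of 1e+06) in Ctrl CL, 21300 to 26012 in Ctrl IL, 36753 to 40445 in cKO CL and 21423 to 23651 in cKO IL. Of 10 markers of infiltrating monocytes and macrophages, 5 rose in Ctrl and 6 in cKO, and with the mouse as a fixed block 1 was lower in Ctrl. Their sums overlapped between hemispheres in Ctrl, at 132 to 764 CPM in CL and 638 to 911 CPM in IL, and were apart in cKO, from 123 to 338 CPM in cKO CL to 609 to 822 CPM in cKO IL. The summed neutrophil markers were at 1381 to 8385, 876 to 1432, 1299 to 2337 and 850 to 1085 CPM in CL and IL of Ctrl and then in CL and IL of cKO, and their median log2FC (log2 fold change) in IL compared to CL was -2.70 in Ctrl and -1.31 in cKO. Of the 10, 0 passed the limma test in Ctrl and 6 were lower in cKO, whereas 8 were lower in Ctrl with the mouse as a fixed block and 7 with it as a random effect, which left 2 in cKO. In the same order of groups, B cell markers summed to 568 to 846, 325 to 355, 669 to 779 and 327 to 499 CPM, with 7 of 10 under 1 CPM in every library, and fell in IL for 2 of 5 tested in Ctrl and 2 of 4 in cKO. T and NK cell markers (5.74 to 23.5 CPM over all libraries), of which 3 of 6 tested fell in Ctrl and 5 with the mouse as a fixed block, and neuronal markers (3.24 to 21.5 CPM) were sparse, and astrocyte (127 to 240 CPM), oligodendrocyte (178 to 317 CPM) and endothelial markers (91.8 to 256 CPM) were present at a low summed level. The astrocyte sum was 215 to 240 CPM in Ctrl CL and 127 to 187 CPM in Ctrl IL, with 1 of 10 markers higher and 1 lower in each genotype, and in cKO 2 of 9 oligodendrocyte and 3 of 10 endothelial markers were higher in IL. Between genotypes, 1 of 10 homeostatic microglia markers was lower in cKO in IL and 1 of 9 oligodendrocyte markers in CL, and 0 of the other lists passed. Beside these marker counts, 4.18% of all genes were called higher and 3.33% lower in IL in Ctrl, and 12.3% and 10.8% in cKO. With the mouse as a fixed block, 10.3% were lower in Ctrl and 6.18% in cKO, and as a random effect 12.8% and 10%. Between genotypes, 0.905% were called in CL and 0.664% in IL. Since these were bulk libraries, fewer cells of a type and less RNA per cell cannot be told apart, and the part of these markers in the results below was not tested.

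*Abhd12*, for a hydrolase of 2-arachidonoylglycerol, and *Daglb*, for a lipase that makes it, were the most abundant members and *Faah* the least. Per kilobase of annotated exon, the mean level over the 14 libraries was 589.8 ± 74.7 CPM per kb (SD) for *Abhd12* and 114 ± 18.2 CPM per kb for *Daglb*. *Abhd6* followed at 18.5 ± 4.54, *Cnr2* at 8.16 ± 1.31, *Mgll* at 7.52 ± 3.77 and *Dagla* at 1.83 ± 0.758 CPM per kb. *Napepld* reached 0.899 ± 0.397 and *Faah* 0.155 ± 0.0903 CPM per kb. This order held in each of the 14 libraries between neighbours, except that *Cnr2* was above *Mgll* in 9 of 14 and *Dagla* above *Napepld* in 12 of 14. The first of these turned with the hemisphere: in IL, *Cnr2* (6.31 to 9.37 CPM per kb) lay above *Mgll* (2.99 to 4.81) in 7 of 7 libraries without overlap, whereas in CL it did so in 2 of 7 and the ranges overlapped (6.85 to 10.9 against 8.25 to 13.3). *Dagla* and *Napepld* overlapped in Ctrl IL, where *Dagla* was above in 2 of 4 libraries, and in the other groups their ranges were apart. The depth behind these levels differed as much. In estimated reads per library, *Faah* rested on 1 to 36.0 (median 18.5) and *Napepld* on 38.0 to 201 (median 107), against 12449 to 58488 (median 35249) for *Abhd12*. Reads without molecular identifiers are not independent molecules, so these numbers bear on counting error only. The kit keeps no strand, and *Daglb* shares 2309 exon bases with *Rac1* on the opposite strand, so part of the reads of *Daglb* cannot be told apart from those of *Rac1*.

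**Figure D1:**
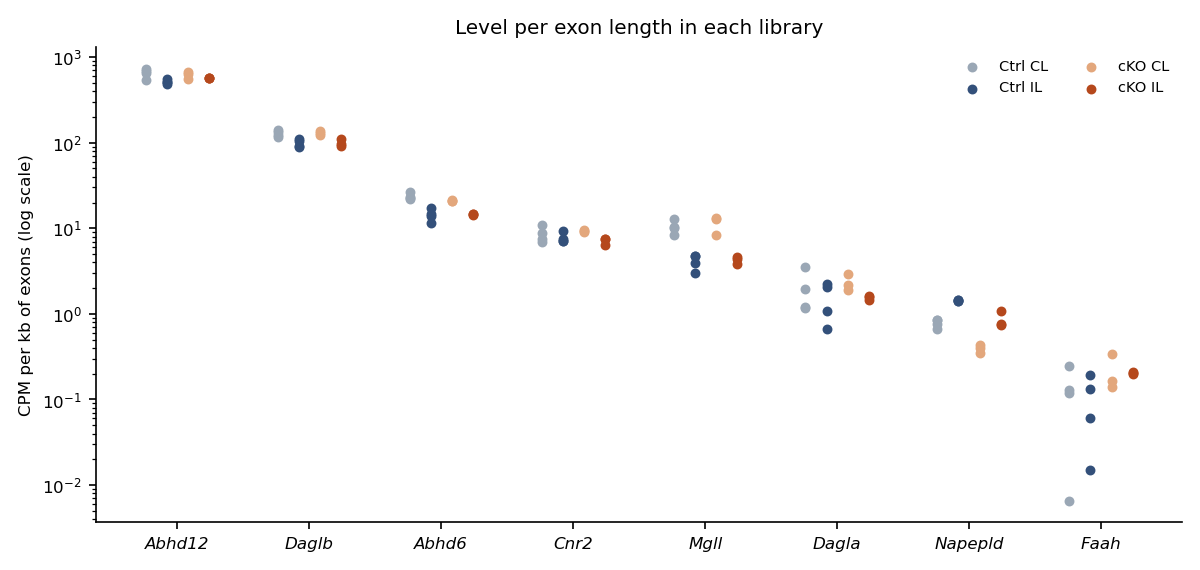
Levels of the 8 members per kilobase of exon (CPM per kb, log axis), with 1 point per library and groups by colour. *Abhd12* and *Daglb* stand above the other members in every library, and *Faah* is the lowest in every library.

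*Napepld* was higher in the IL than in the CL hemisphere in both genotypes and lower in cKO than in Ctrl in both hemispheres. It was at 3.32, 3.03, 2.61 and 3.36 CPM in Ctrl CL (mice 3541, 3545, 3546 and 3551) and at 5.72, 5.66, 5.56 and 5.67 CPM in Ctrl IL of the same mice. In cKO it was at 1.58, 1.38 and 1.7 CPM in CL (mice 788, 791 and 3592) and at 2.90, 3.03 and 4.23 CPM in IL (mice 784, 791 and 3592). The 4 Ctrl IL libraries lay above all others, the 3 cKO CL libraries lay below all others, and the cKO IL libraries spread over and above the Ctrl CL range. The group means were 3.08 ± 0.344 CPM (SD, n = 4) in Ctrl CL, 5.65 ± 0.0650 CPM (n = 4) in Ctrl IL, 1.55 ± 0.162 CPM (n = 3) in cKO CL and 3.39 ± 0.737 CPM (n = 3) in cKO IL.

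**Figure D2:**
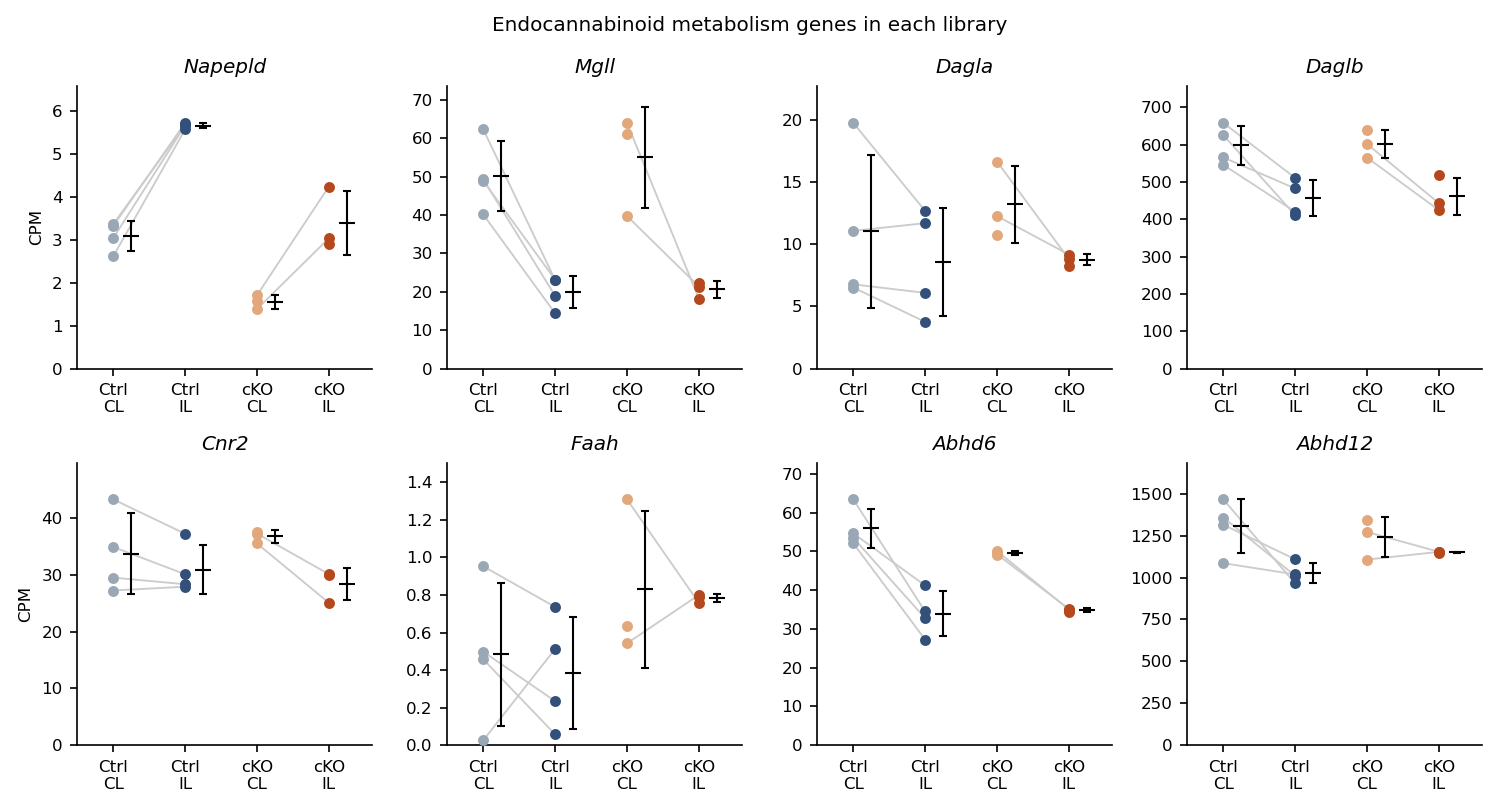
CPM of each of the 8 members in every library, by group (Ctrl CL and Ctrl IL, n = 4 each; cKO CL and cKO IL, n = 3 each), with 1 point per mouse, grey lines that join the hemispheres of a mouse and a bar at the group mean with its SD. *Napepld* is higher in IL than in CL within each genotype and lower in cKO than in Ctrl within each hemisphere, whereas *Mgll* and *Abhd6* are lower in IL.

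The first comparison was between hemispheres, which gives the effect of the injured side within a genotype. In limma on log2(CPM + 1), a scale that understates the change of low genes, *Napepld* rose in IL compared to CL by a log2FC of 0.78 (SE 0.17, adjusted p = 0.0259) in Ctrl and 0.81 (SE 0.17, adjusted p = 0.0125) in cKO. The ratio of the mean CPM was 1.83 in Ctrl and 2.18 in cKO. In the 6 mice with both hemispheres, IL was higher than CL in 6 of 6, with a ratio within the mouse between 1.69 and 2.49 (median 2.0). The Ctrl call was close to the threshold: it was lost without Ctrl CL 3545 (adjusted p = 0.0751), 3546 (0.0681) or 3551 (0.0558), without Ctrl IL 3541 (0.104), 3545 (0.0962) or 3551 (0.0628), and with no filter on low values (0.132). Those fits leave out the pairing of hemispheres. With the mouse as a fixed block the SE in Ctrl was 0.15 and the limma adjusted p 0.0121, where 20.5% of all genes were called in either direction. With it as a random effect the adjusted p was 0.00025. Over all alternatives the Ctrl value ran from 0.00025 to 0.132. In cKO the call held without each library in turn (adjusted p 0.0197 to 0.0455), but not with no filter (0.0609). It also held with the mouse as a fixed block (limma adjusted p = 0.0420, beside 14.7% of all genes) and as a random effect (0.00167).

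*Mgll*, whose product hydrolyses most 2-arachidonoylglycerol in the brain, fell in IL in both genotypes. It was at 40.2, 49.4, 62.4 and 48.9 CPM in Ctrl CL and at 14.4, 18.9, 23.1 and 23.2 CPM in Ctrl IL. The cKO values were 61.2, 39.8 and 64.1 CPM in CL and 22.3, 21.4 and 18.2 CPM in IL. Every IL library was below every CL library, and the IL groups of both genotypes covered much the same range. The log2FC in limma was -1.22 (SE 0.16, adjusted p = 0.00237) in Ctrl and -1.28 (SE 0.19, adjusted p = 0.00456) in cKO. Mean CPM in IL was 0.396 of that in CL in Ctrl and 0.375 in cKO, and within the 6 mice the ratio ran from 0.284 to 0.537. *Mgll* passed the test under all of the alternatives tried in both genotypes.

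*Abhd6*, a hydrolase of 2-arachidonoylglycerol at the inner face of the plasma membrane, also fell. It was at 53.5, 63.5, 52.1 and 54.7 CPM in Ctrl CL and at 32.7, 34.5, 27.2 and 41.2 CPM in Ctrl IL. In cKO the values were closer together, at 49.2, 49.3 and 50.1 CPM in CL and at 34.3, 35.2 and 35.0 CPM in IL. The groups did not overlap in either genotype, and IL was lower than CL in 6 of 6 mice, with a ratio of 0.523 to 0.754. The log2FC was -0.63 (SE 0.17, limma adjusted p = 0.0498) in Ctrl and -0.43 (SE 0.09, limma adjusted p = 0.0118) in cKO. The Ctrl call stood at the threshold and was lost when any of the 8 libraries was left out, with an adjusted p between 0.0614 and 0.163. With the mouse as a fixed block the SE in Ctrl was 0.11 and the limma adjusted p 0.00932, and with it as a random effect the adjusted p was 0.00068, so that all alternatives spanned 0.00068 to 0.163. The cKO call was lost without cKO IL 784 (adjusted p = 0.0550), and with the mouse as a fixed block, which leaves 2 paired cKO mice, limma gave an adjusted p of 0.0754. It was also lost with all 14 libraries in 1 fit (0.117). Over all alternatives the cKO value ran from 0.00617 to 0.117. Under that block 6.18% of all genes were called lower in cKO.

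Among the synthetic lipases, *Daglb* was at 626, 546, 659 and 566 CPM in Ctrl CL and 411, 420, 511 and 483 CPM in Ctrl IL, and at 640, 602 and 566 CPM in cKO CL and 518, 443 and 425 CPM in cKO IL. Every IL library was below every CL library of its genotype, and the ratio of the means was 0.762 in Ctrl and 0.767 in cKO. Limma gave -0.31 (SE 0.12, adjusted p = 0.158) in Ctrl and -0.32 (SE 0.13, adjusted p = 0.110) in cKO. With the mouse as a fixed block, the same Ctrl change passed the test (SE 0.08, adjusted p = 0.0423), as did 10.3% of all genes on the lower side. With the mouse as a random effect, it passed in both genotypes, with a limma adjusted p of 0.0191 in Ctrl and 0.0341 in cKO, beside 12.8% and 10% of all genes on the lower side. In cKO it did not pass with the mouse as a fixed block (adjusted p = 0.124), and over all alternatives the adjusted p ran up to 0.427 and 0.30. *Rac1*, which shares the exon bases, had a log2FC of 0.00 (SE 0.17) in Ctrl and 0.01 (SE 0.10) in cKO.

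*Dagla*, the diacylglycerol lipase better known from neurons, was at 6.52, 6.77, 19.8 and 11.1 CPM in Ctrl CL and 3.76, 6.09, 12.7 and 11.7 CPM in Ctrl IL. Mice 3546 and 3551 were above mice 3541 and 3545 in both hemispheres, so the groups overlapped and the spread among Ctrl mice was wider than the difference between hemispheres (log2FC -0.26, SE 0.37, limma adjusted p = 0.776). Its cKO values were 10.7, 12.3 and 16.7 CPM in CL and 8.28, 9.17 and 8.80 CPM in IL, without overlap, but the test was not passed (-0.46, SE 0.17, limma adjusted p = 0.0868).

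*Abhd12*, the lipase that also degrades lysophosphatidylserine, was at 1307 ± 160 CPM (SD, n = 4) in Ctrl CL and 1026 ± 60.3 CPM (n = 4) in Ctrl IL, and its groups overlapped (log2FC -0.26, SE 0.15, limma adjusted p = 0.384). In cKO it was at 1241 ± 121 CPM (n = 3) in CL and 1152 ± 2.62 CPM (n = 3) in IL (-0.04, SE 0.14, limma adjusted p = 0.872). *Faah* was at 0.457, 0.0251, 0.953 and 0.498 CPM in Ctrl CL, 0.0569, 0.512, 0.736 and 0.234 in Ctrl IL, 0.637, 1.31 and 0.542 in cKO CL and 0.790, 0.758 and 0.80 in cKO IL. Its Ctrl values ranged more widely within a hemisphere than between hemispheres, and neither genotype differed between them (limma adjusted p = 0.925 and 0.962). The ratio within the mouse is not informative for *Faah*, because Ctrl CL 3545 rested on an estimated 1 read.

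The CB2 receptor transcript *Cnr2* was at 35.0, 27.3, 43.4 and 29.6 CPM in Ctrl CL and 30.2, 28.0, 37.3 and 28.4 CPM in Ctrl IL, with overlapping groups (log2FC -0.03, SE 0.17, limma adjusted p = 0.963). The cKO libraries had 37.7, 35.6 and 37.3 CPM in CL and 30.0, 25.1 and 30.2 CPM in IL. The cKO groups did not overlap, and the difference of -0.31 (SE 0.10, limma adjusted p = 0.0577) fell just short of the threshold. *Cnr2* passed in 3 of 16 alternative fits in cKO, with the deposited CPM unscaled (adjusted p = 0.0410), with upper-quartile scaling (0.0379) and with 10 reads in every library (0.0492).

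Of the 8 members, 1 passed the test as higher in IL and 2 as lower in each genotype. Among all genes tested, 4.18% were called higher and 3.33% lower in Ctrl, and 12.3% higher and 10.8% lower in cKO. Without scaling of the deposited CPM, the Ctrl calls over all genes changed from 685 higher and 546 lower to 625 higher and 814 lower, and the cKO calls from 2067 higher and 1803 lower to 1647 higher and 2146 lower. With upper-quartile scaling, Ctrl had 659 higher and 737 lower and cKO 1784 higher and 2136 lower. Non-overlapping groups were found for 1 higher and 3 lower members in Ctrl, against 6.26% and 11.4% of all genes, and for 1 higher and 5 lower members in cKO, against 18.1% and 24.3%. The median log2FC of the members was -0.26 in Ctrl and -0.31 in cKO, beside -0.03 and 0.01 over all genes tested. Both comparisons ran alongside the lower microglia marker sums and the monocyte marker calls given above, and alongside the changes given there for the other lists.

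**Figure D3:**
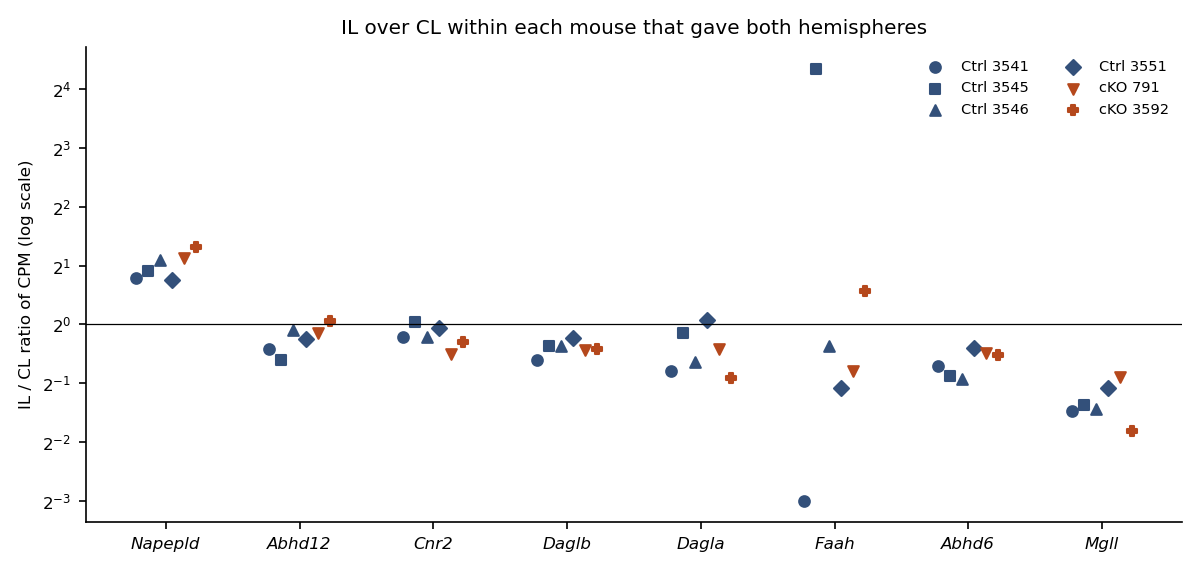
IL/CL ratio of CPM for each of the 8 members in the 6 mice with both hemispheres (log axis, 1 symbol per mouse, line at a ratio of 1). *Napepld* is above 1 in 6 of 6 mice, *Mgll*, *Abhd6* and *Daglb* are below 1 in 6 of 6, and *Faah* scatters on both sides.

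The second comparison was between genotypes, which asks whether these genes differed between cKO and Ctrl. It shares its libraries with the comparison between hemispheres. In CL the median log2FC of the marker lists in cKO was -1.27 for neutrophils (3 of 10 at an unadjusted p below 0.05), -0.52 for T and NK cells (3 of 6), -0.46 for oligodendrocytes (5 of 9) and -0.64 for endothelium (5 of 10), and their part in the results was not tested. *Napepld* was the single member with every cKO library below every Ctrl library in both hemispheres: mean CPM in cKO was 0.505 of Ctrl in CL and 0.599 in IL. Of 16018 genes tested in both hemispheres, 1.77% were lower without overlap in both. The log2FC in limma was -0.64 (SE 0.19, adjusted p = 0.225) in CL and -0.60 (SE 0.17, adjusted p = 0.251) in IL, so neither passed the test within a hemisphere. The paper, which tested genes with other software, names *Napepld* among the inflammatory genes reduced in cKO in CL. The limma fit in CL gave the same direction but did not make that call. When the genotype difference was averaged over both hemispheres with the mouse as a random effect, a fit chosen after the data had been seen, it was -0.65 (SE 0.14) with a limma adjusted p of 0.0249, and 0.996% of all genes were called lower. That call was lost without mouse 784 (adjusted p = 0.110), 788 (0.0587), 791 (0.179), 3541 (0.0994), 3545 (0.101) or 3551 (0.0568) and held without 3546 (0.0121) or 3592 (0.0468). Between these fits the log2FC stayed between -0.60 and -0.70. No alternative fit within a hemisphere passed for *Napepld*, and the adjusted p ran up to 0.721 in CL and 0.819 in IL. The value of 0.0249 belongs to the averaged fit alone.

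No member passed the test in either hemisphere (0 of 8 in CL and 0 of 8 in IL in limma), where 0.905% and 0.664% of all genes were called. At an unadjusted p below 0.05 there was *Napepld* in CL, and *Napepld* and *Faah* in IL, beside 10.3% and 9.19% of all genes. *Abhd6* in CL did not overlap between genotypes, but its difference was small (log2FC -0.12, SE 0.14, limma adjusted p = 0.833). With *Napepld* this made 2 members lower without overlap in CL, against 6.04% of all genes. In IL, *Napepld* was lower without overlap, against 5.48% of genes, while *Faah* and *Abhd12* were higher, against 4.85%. *Faah* was at 0.385 ± 0.30 CPM (SD, n = 4) in Ctrl IL and 0.783 ± 0.0222 CPM (n = 3) in cKO IL, with a log2FC of 0.41 (SE 0.18, limma adjusted p = 0.543). For *Abhd12* the difference was 0.19 (SE 0.11, limma adjusted p = 0.732).

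The other members overlapped between genotypes in both hemispheres. The log2FC of *Mgll* was 0.17 (SE 0.20) in CL and 0.09 (SE 0.17) in IL, and that of *Daglb* 0.06 (SE 0.15) and 0.04 (SE 0.12). *Cnr2* differed by 0.19 (SE 0.17) and -0.10 (SE 0.13), and *Dagla* by 0.40 (SE 0.32) and 0.18 (SE 0.32), with limma adjusted p-values of 0.727 or more for these 4 genes. The median of the 8 members was 0.12 in CL and 0.08 in IL, beside -0.01 and 0.02 over all genes tested.

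**Figure D4:**
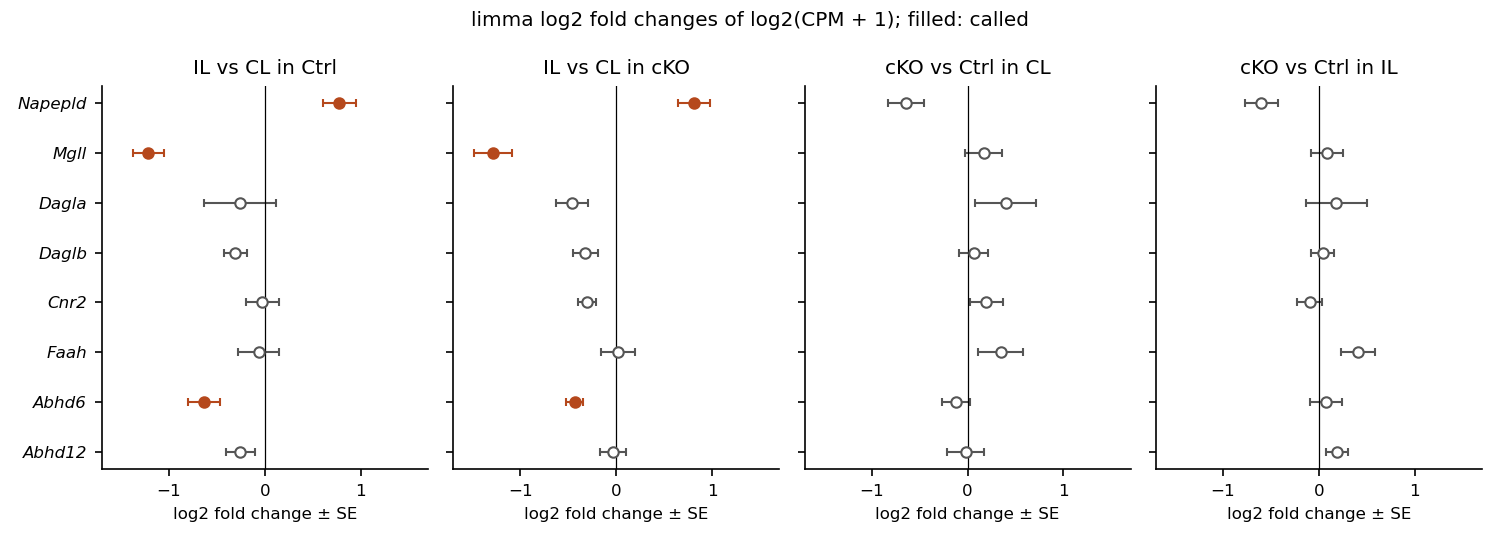
The log2FC of each member on the log2(CPM + 1) scale with its SE, for cKO compared to Ctrl in CL and in IL and for IL compared to CL in Ctrl and in cKO, filled where the limma test was passed. *Mgll* and *Abhd6* lie below 0 and *Napepld* above 0 between hemispheres, whereas *Napepld* lies below 0 between genotypes.

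The change between hemispheres did not differ detectably between genotypes for any member. The interaction was 0.01 (SE 0.24) for *Napepld*, -0.10 (SE 0.26) for *Mgll*, 0.17 (SE 0.22) for *Abhd6*, -0.31 (SE 0.21) for *Cnr2*, -0.05 for *Daglb*, 0.06 for *Faah*, 0.19 (SE 0.23) for *Abhd12* and -0.23 (SE 0.47) for *Dagla*. In limma 0 of 8 members and 0 of 18476 genes (0.0%) passed for the interaction, with 490 genes at an unadjusted p below 0.05. None of the 8 members had an unadjusted p below 0.05, which does not show that the genotypes responded alike.

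*Armc10*, whose gene lies 207 bases from *Napepld*, had a log2FC between genotypes of 0.00 in CL (limma adjusted p = 0.996) and -0.03 in IL (limma adjusted p = 0.980). *Pmpcb*, the nearest protein-coding gene on the other side, 35745 bases away, differed by -0.12 in CL (limma adjusted p = 0.857) and -0.02 in IL (limma adjusted p = 0.984). Neither neighbour passed the test between genotypes.

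The wider pathway was described from 36 further endocannabinoid genes, 35 of which were in the table, and 16 eicosanoid enzymes. None of those tested passed between genotypes, with 0 of 29 and 0 of 16 in CL and 0 of 28 and 0 of 16 in IL in limma, and 5 of 45 in CL and 6 of 44 in IL had an unadjusted p below 0.05, beside 10.3% and 9.19% of all genes. Between hemispheres, 5 of 44 passed in Ctrl (3 higher and 2 lower in IL) and 12 of 44 in cKO (5 higher and 7 lower), beside 7.52% and 23.1% of all genes. With the mouse as a fixed block, 10 of 44 passed in Ctrl, 7 higher and 3 lower, and 10 of 44 in cKO, beside 20.5% and 14.7% of all genes. The median log2FC of the 44 genes was 0.02 in Ctrl and -0.01 in cKO, beside -0.03 and 0.01 over all genes. For the interaction, 0 of 46 passed and 0 had an unadjusted p below 0.05. With the mouse as a random effect, 0 passed. There, 2 of 30 endocannabinoid genes and 0 of 16 eicosanoid enzymes had an unadjusted p below 0.05, beside 1271 of 18476 genes.

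By role, of 6 genes for breakdown and transport of N-acylethanolamines, 2 rose in both genotypes, *Fabp5* and *Fabp3*, fatty acid-binding proteins, of which FABP5 carries anandamide through the cytoplasm. *Fabp5* was at 13.9 ± 10.1 CPM (SD, n = 4) in Ctrl CL and 336 ± 164 CPM (n = 4) in Ctrl IL, a log2FC of 4.69 (SE 0.56, limma adjusted p = 0.00137). In cKO it was at 44.0 ± 47.8 CPM (n = 3) in CL and 219 ± 81.9 CPM (n = 3) in IL (2.84, SE 0.62, limma adjusted p = 0.0155), a call that was lost without cKO IL 3592 (adjusted p = 0.0547). *Fabp3* was lower, at 1.07 ± 0.307 and 5.42 ± 2.92 CPM in Ctrl CL and IL (n = 4) and 2.86 ± 1.36 and 8.94 ± 0.343 CPM in cKO CL and IL (n = 3), and rose by 1.56 (SE 0.40, limma adjusted p = 0.0443) in Ctrl and 1.49 (SE 0.27, limma adjusted p = 0.00790) in cKO. The Ctrl call of *Fabp3* was lost without any of the Ctrl libraries but Ctrl IL 3546 (limma adjusted p from 0.0698 to 0.136) and with no filter (0.135). *Fabp7*, another carrier, rose in Ctrl under either block (0.74, adjusted p = 0.0282 as a fixed block). The genes called in cKO alone are named after their values were seen, as are those called under a block alone. Of 7 tested genes for other routes of N-acylethanolamine synthesis, 0 passed in Ctrl and 1 in cKO, the glycerophosphodiesterase *Gde1*, which was higher in IL (0.83, SE 0.10, limma adjusted p = 0.00236). *Gde1* also passed in Ctrl with the mouse as a fixed block (0.74, limma adjusted p = 0.00332). *Ptpn22* was lower in Ctrl with the random effect (-0.64, limma adjusted p = 0.0402) but did not pass with the fixed block (0.0509). Of 9 genes listed together for diacylglycerol supply and 2-arachidonoylglycerol, 0 passed in Ctrl and 2 in cKO. These were the phospholipases C *Plcb2* and *Plcg1*, both lower in IL. Both calls were lost with the mouse as a random effect (limma adjusted p = 0.130 and 0.106) and held with it as a fixed block (0.0385 and 0.0320), and *Ddhd1* was higher in Ctrl under either block (adjusted p = 0.0280 as a fixed block). Of 6 tested receptors and partners, 0 passed in Ctrl and 1 in cKO, *Cnrip1*, a protein that binds the CB1 receptor, which was lower in IL. That call was lost with the mouse as a fixed block (limma adjusted p = 0.157) and held with the random effect (0.0246), under which *Cnrip1* and *Ppara* were lower in Ctrl (adjusted p = 0.0172 and 0.00832), while *Ppara* did not pass in cKO (adjusted p = 0.273).

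The eicosanoid enzymes, which use the arachidonate that MGLL releases, moved both ways. *Ptgs2*, the inducible cyclooxygenase, rose in IL from 52.2 ± 17.3 to 299 ± 78.0 CPM in Ctrl (SD, n = 4; log2FC 2.60, SE 0.29, limma adjusted p = 0.00117) and from 71.6 ± 20.3 to 328 ± 68.7 CPM in cKO (n = 3; 2.26, SE 0.23, limma adjusted p = 0.00195). *Ptgs1*, the constitutive cyclooxygenase, fell from 1255 ± 76.8 to 553 ± 51.3 CPM in Ctrl (-1.10, SE 0.13, limma adjusted p = 0.00137) and from 1176 ± 110 to 626 ± 64.3 CPM in cKO (-0.84, SE 0.15, limma adjusted p = 0.00809). *Hpgd*, which inactivates prostaglandins, fell from 341 ± 86.1 to 120 ± 19.6 CPM in Ctrl (-1.40, SE 0.19, limma adjusted p = 0.00280) and from 276 ± 53.1 to 94.8 ± 11.2 CPM in cKO (-1.46, SE 0.13, limma adjusted p = 0.00195). In Ctrl these 3 were the calls among the 16. In cKO, 6 passed, with *Ptges* higher and *Alox5* and *Hpgds* lower in IL beside them. With the mouse as a fixed block, *Ptges* and *Alox5* passed in Ctrl as well (limma adjusted p = 0.0456 and 0.0358), and the call of *Hpgds* in cKO was lost (limma adjusted p = 0.0958). With the random effect, *Ltc4s* was lower in Ctrl (-0.85, limma adjusted p = 0.0459), a call that was absent with the fixed block (0.115).

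**Figure D5:**
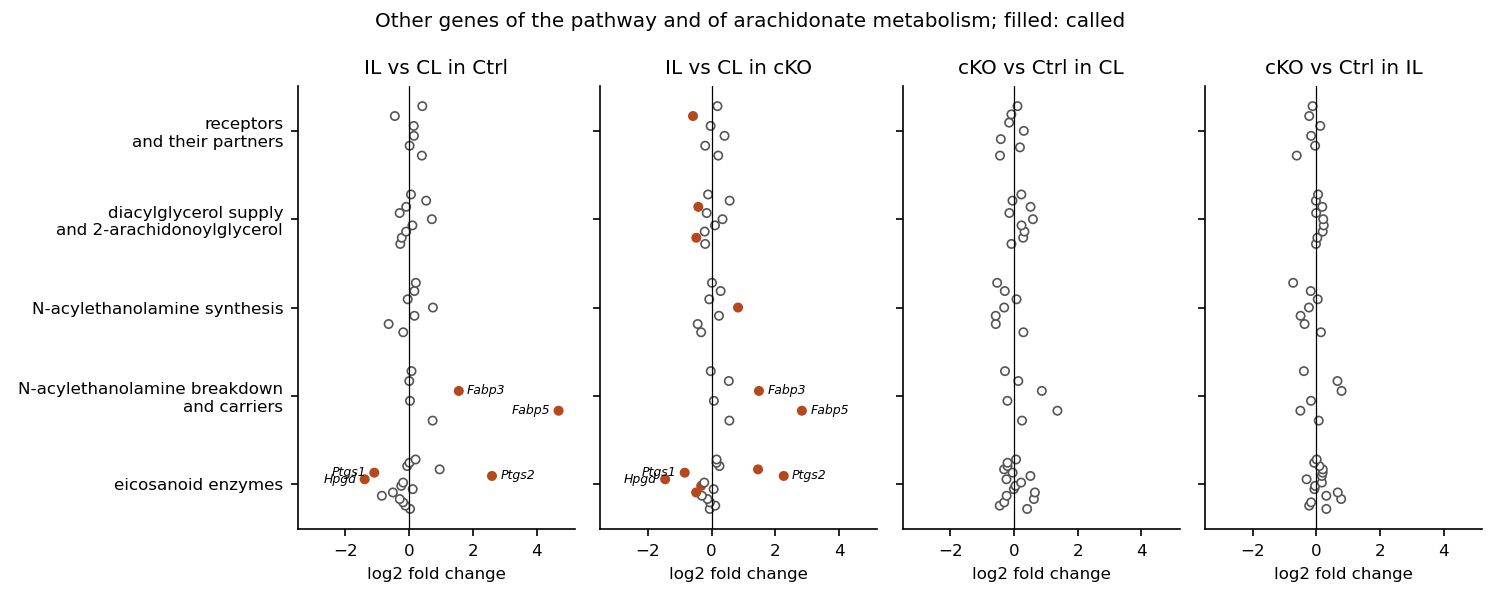
The log2FC (log2(CPM + 1) scale) of the tested genes of the wider endocannabinoid and eicosanoid lists by role, for IL compared to CL in each genotype and for cKO compared to Ctrl in each hemisphere, with 1 point per gene, filled where the limma test was passed. *Fabp5*, *Fabp3* and *Ptgs2* lie above 0 and *Ptgs1* and *Hpgd* below 0 between hemispheres in both genotypes, and no point is filled between genotypes.

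The genes most like *Napepld*, *Mgll*, *Cnr2* and *Faah* were found by Pearson's r of log2 values over the 14 libraries among 13473 genes. They are given as a description, since the libraries share their groups. For *Napepld* the highest were *Ifi207* (r = 0.961), *Cndp2* (r = 0.952) and *Rtcb* (r = 0.950). After the group means were taken out, r was 0.399, 0.396 and 0.347 for these, and 0.855 for *Rnf128*, which had r = 0.941 before. The fifth, *B3gnt3*, had r = 0.940 and 0.654. For *Mgll* they were *Rtn4rl1* (r = 0.980, and 0.843 after the group means were taken out), *Stambpl1* (0.976 and 0.773) and *Klhdc8b* (0.975 and 0.739). For *Cnr2* they were *Sin3a* (0.931 and 0.910), *Chkb* (0.873 and 0.824) and *Calcoco1* (0.845 and 0.772). For *Faah*, at few reads, they were *Zfp239* (0.875 and 0.849), *Btla* (0.844 and 0.786) and *Usp45* (0.841 and 0.759). *Napepld* and *Mgll* ran against each other with r = -0.794, and -0.429 after the group means were taken out.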

How the data were processed

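RNA from CD11b+ cells was made into libraries with a Smart Seq v4 kit and sequenced on a NovaSeq, and the authors aligned reads with STAR to mm10 in Partek Flow 8.0. The gene counter and annotation are not given in the sources used here. The deposited values are CPM, scaled by the authors so that each library sums to 1e+06 (between 78.9% and 83.5% of values under 100 reads were whole multiples of 1 step within 0.03, so counts were not recovered and no count model was run). Depth, estimated from that step, was 12.2 to 41.6 M reads (M for 1e+06). Members and lists were chosen with earlier results of these data known. Groups came from the labels. The check of the targeted gene is not reported here.

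Genes with at least the CPM of 10 reads at median depth in as many libraries as the smaller group and 15 reads in total were kept. CPM were scaled by unweighted trimmed means of M-values (30% of M-values and 5% of A-values trimmed), a pseudocount of 1 was added, and log2 values were compared with limma 3.58.1 (trend; R 4.3.3; Python 3.11.15), two-sided, with Benjamini-Hochberg adjustment over all genes. A gene was called at adjusted p ≤ 0.05 and a fold of at least 1.2, and each fit held the compared libraries, or all 14 for the interaction. The procedure was tested on simulated data. Named were all members, wider-list genes called between genotypes, up to 5 higher and 5 lower per list called in IL compared to CL in Ctrl (largest change, mean of at least 1 CPM in a group), the 5 genes most like *Napepld* and 3 most like *Mgll*, *Cnr2* and *Faah*, and the nearest protein-coding genes on each side of *Napepld*.

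The same mouse number in CL and IL is the same animal. Deviations from the group means correlated at 0.184 to 0.604 in the 6 pairs of the same mouse and at -0.529 to 0.498 (median -0.218) in 19 pairs of other mice. Mice 784 and 788 were taken as different animals. Alternatives were other scalings, pseudocounts and filters, 14 libraries in 1 fit, the mouse as a block, other call rules and each library left out, and, chosen after seeing the data, the genotype difference averaged over hemispheres and that fit without each mouse.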

Additional observations from a re-analysis of the deposited data

How the results depend on the processing

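*Mgll* was called between hemispheres in both genotypes in every alternative fit, 18 in Ctrl and 16 in cKO. *Napepld* was called in 11 of 18 in Ctrl and 15 of 16 in cKO, and *Abhd6* in 6 of 18 and 13 of 16. Between genotypes, *Napepld* was called in 1 of 17 such fits set beside each hemisphere. This was the same fit averaged over both, so no fit within a hemisphere called it.

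Between genotypes the count of called members was 0 in CL and 0 in IL. It was 1 in the fit averaged over hemispheres, which is another contrast. Between hemispheres in Ctrl the count of 3 fell to 1 with no filter on low values and to 1 with a fold of at least 2, and it was 1 to 2 without 1 library (1 without Ctrl CL 3545, 3546 or 3551 or Ctrl IL 3541, 3545 or 3551). In cKO it was 5 with the deposited CPM unscaled and 1 with a fold of at least 2. The 5 calls of the wider lists in Ctrl became 8 with 14 libraries in 1 fit, 14 with the mouse as a random effect and 10 as a fixed block. The 12 in cKO became 7 with 14 libraries in 1 fit and 5 with a fold of at least 2, and 7 to 12 without 1 library (7 without cKO IL 784 or 3592). The 0 between genotypes in IL became 1 with unscaled CPM and 0 to 1 without 1 library (1 without Ctrl IL 3546).

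Over all genes the 1231 calls in IL compared to CL in Ctrl became 597 with no filter, 2055 with 14 libraries in 1 fit, 4414 with the mouse as a random effect and 3349 as a fixed block. Leaving out 1 library gave 572 to 1662, below 1231 by over 1.5 times without Ctrl CL 3545 or 3546 or Ctrl IL 3541, 3545 or 3551. The 3870 in cKO became 1567 with 14 libraries in 1 fit and 2458 with the fixed block, and 1960 to 3630 without 1 library, lowest without cKO IL 784, 791 or 3592 or cKO CL 788. Between genotypes the 150 calls in CL became 96 with no filter, 96 with 10 reads in every library, 277 with 14 libraries in 1 fit and 296 with the mouse as a random effect, and the 112 in IL became 69 with no filter, 169 with 14 libraries in 1 fit and 188 with the random effect. Without 1 library there were 67 to 161 in CL, lowest without cKO CL 791 or 788 or Ctrl CL 3545, and 44 to 294 in IL, highest without Ctrl IL 3546 and lowest without cKO IL 784 or 791 or Ctrl IL 3545, 3541 or 3551. For the interaction, the 0 called genes became 5 when the mouse was a random effect. The replicate block changed no call of a member other than those given above for *Napepld*, *Daglb* and *Abhd6*.

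Values marked averaged below come from another contrast than CL or IL alone. Log2 fold changes that changed sign were small. These were *Daglb* in CL (-0.015 with no filter) and IL (-0.0011 with 14 libraries), *Abhd12* in CL (0.068 averaged), *Cnr2* and *Abhd6* in IL (0.033 and -0.050 averaged), *Cnr2* between hemispheres in Ctrl (0.00057 with median-ratio scaling), *Faah* in cKO (-0.014 unscaled, -0.0081 with upper-quartile scaling, -0.020 with the random and -0.054 with the fixed block), *Abhd12* in cKO (0.031 with the fixed block) and the interaction of *Daglb* (0.0084 unscaled, 0.025 with no filter). Leaving out 1 library gave -0.13 to 0.042 for *Abhd12* between hemispheres in cKO and -0.15 to 0.076 in CL, -0.073 to 0.14 for *Abhd6* in IL, -0.11 to 0.076 for *Cnr2* and -0.44 to 0.028 for *Dagla* between hemispheres in Ctrl, -0.073 to 0.35 for *Dagla* in IL, -0.018 to 0.12 and -0.055 to 0.14 for *Daglb* in CL and IL, -0.23 to 0.069 and -0.10 to 0.19 for *Faah* between hemispheres in Ctrl and cKO, -0.0059 to 0.21 for *Mgll* in IL, -0.15 to 0.025 for *Ptgs1* in CL and -0.018 to 0.35 for *Ptgs2* in IL. For the interaction it gave -0.14 to 0.062 for *Daglb*, -0.072 to 0.24 for *Faah*, -0.31 to 0.031 for *Mgll*, -0.083 to 0.087 for *Napepld*, -0.53 to 0.15 for *Fabp3* and -0.29 to 0.040 for *Hpgd*. In the averaged fit, leaving out 1 mouse gave -0.0086 to 0.13 for *Abhd12*, -0.14 to 0.016 for *Abhd6*, -0.049 to 0.11 for *Cnr2* and -0.013 to 0.12 for *Daglb*. The cause of these changes was not tested. *Faah*, at an estimated 1 to 36.0 reads per library, is the member that depth limits most.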

Other observations

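Among the nearest protein-coding neighbours of the members, the largest genotype difference was in a neighbour of *Abhd6*, found after its values had been seen. *Dnase1l3*, which codes for a secreted DNase, lies 8329 bases from *Abhd6*. It was at 0.252 ± 0.110 CPM (SD, n = 4) in Ctrl CL and 4.31 ± 0.638 CPM (n = 3) in cKO CL, and rose in cKO by 2.11 on the log2 scale (SE 0.18, limma adjusted p = 0.000311). In IL it was at 0.226 ± 0.16 CPM (n = 4) in Ctrl and 1.74 ± 1.27 CPM (n = 3) in cKO, and the difference of 1.09 did not pass (SE 0.29, limma adjusted p = 0.206). The interaction, -0.99 (SE 0.34), did not pass either. *Abhd6* itself did not pass between genotypes in either hemisphere.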
